A study of Homo sapiens with 4 samples.

Results

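The genes described here form 1 signalling module: 16 WNT ligands, 10 Frizzled receptors, 5 co-receptors, 7 secreted antagonists and 8 target or feedback genes, 46 genes in all. Each was found by its gene name on a single row of the deposited table of 60623 genes. Their RNA was measured in T24, an established line of human bladder carcinoma cells. The study sequenced 2 control libraries and 2 libraries of T24 cells that overexpress CBX7, to find genes that change with this protein. CBX7 is a Polycomb protein of the PRC1 complex, which reads trimethylated histone H3 at lysine 27 and holds genes silent, and it was expressed here in full length from a pCDH-3xFLAG vector. The labels name the control libraries only as CON and give no other treatment, time or clone, and they do not say whether the 2 libraries of a group came from separate cultures. The p-values therefore measure the spread between these libraries, which may be technical.

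WNT ligands are secreted, lipid-bearing proteins that bind a Frizzled receptor together with a co-receptor. In the canonical branch, binding to Frizzled and LRP5 or LRP6 spares beta-catenin from degradation, and beta-catenin then activates target genes with the DNA-binding factors TCF and LEF. Other ligands act through ROR and RYK receptors on cell movement and polarity. Many WNT and inhibitor genes are silenced by Polycomb in cells of other lineages, which makes their level in CBX7-overexpressing cells of interest.

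The estimated counts summed to between 20800910 and 25135488 per library, which puts the limit behind a count of 0 (3 counts) at 0.119 to 0.144 CPM, where CPM is a count scaled to the size of its library. The limit covers counting error only. CBX7 itself had 261.4 and 203.3 counts in control and 42852.5 and 35641.3 in CBX7 libraries, so its level matched the labels of all 4. TPM is an abundance that is also scaled by gene length. Of 15 urothelial and epithelial markers, 6 reached a mean TPM of at least 1, led by KRT7, KRT8 and KRT18, while CDH1 and TP63 had at most 2 counts and KRT5 was at 0 in every library. All 3 mesenchymal markers were present, with VIM at 2479 TPM on average. The summed level of the epithelial list was 3174 to 3274 TPM in control and 3376 to 3754 TPM in CBX7 libraries, and that of the mesenchymal list was 3327 to 3357 and 2495 to 2592 TPM. Within them KRT19 had a fold of 2.55 and FN1 of 0.491 between CBX7 and control, which edgeR did not call (adjusted p = 0.352 and 0.597) and DESeq2 did (adjusted p = 0.00361 and 0.00687). VIM made up most of the mesenchymal sum, and its CPM overlapped between the groups (3515 and 3329 in control, 3335 and 2680.1 with CBX7). In CPM the groups also overlapped for KRT7 and KRT8, but not for KRT18, KRT19, CDH2 and FN1. Of the leukocyte genes, CD68 was at 9.45 to 11.5 TPM in control and 6.29 to 6.99 TPM with CBX7, while PTPRC and CD3E had at most 1 count. The 5 fibroblast genes summed to 2.02 to 2.1 and 1.53 to 5.76 TPM, and the 3 endothelial genes to 0.320 and 0.190 TPM. The part of these marker differences in the results was not tested. CBX7 replicate 1 stood apart by a trend with gene length. Over 11077 genes that averaged 100 counts or more, length and its log2 ratio against control replicate 1 were correlated at -0.62 (Spearman), against 0.042 for the replicate 2 libraries.

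Of the 46 genes, 22 reached a mean of 1 TPM over the 4 libraries. A pair of antagonists were the most abundant. DKK1, which binds LRP5 and LRP6 and blocks canonical signalling, averaged 255 TPM, and DKK3, a related secreted glycoprotein, averaged 235 TPM. WNT5B, a ligand of the noncanonical branch, made up between 70.3% and 83.4% of the summed ligand TPM of each library, with a mean of 70.6 TPM. RYK, at 42.4 TPM, and LRP5, at 27.3 TPM, led the co-receptors, and FZD6, at 40.2 TPM, led the Frizzled receptors. Of the 8 target or feedback genes, LEF1 (6.12 TPM), LGR4 (5.91 TPM), ZNRF3 (4.35 TPM) and TCF7 (1.8 TPM) reached 1 TPM, while AXIN2 averaged 0.403 TPM, LGR5 and NKD1 had at most 4.2 counts in any library and RNF43 had none. TPM did not follow count per base equally in all genes: relative to the median gene the ratio of TPM to count per base was 1.68 to 2.29 for LEF1 and 0.482 to 0.485 for WNT7B. The order of such genes in TPM and their shares of a summed TPM are therefore uncertain.

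**Figure D1:**
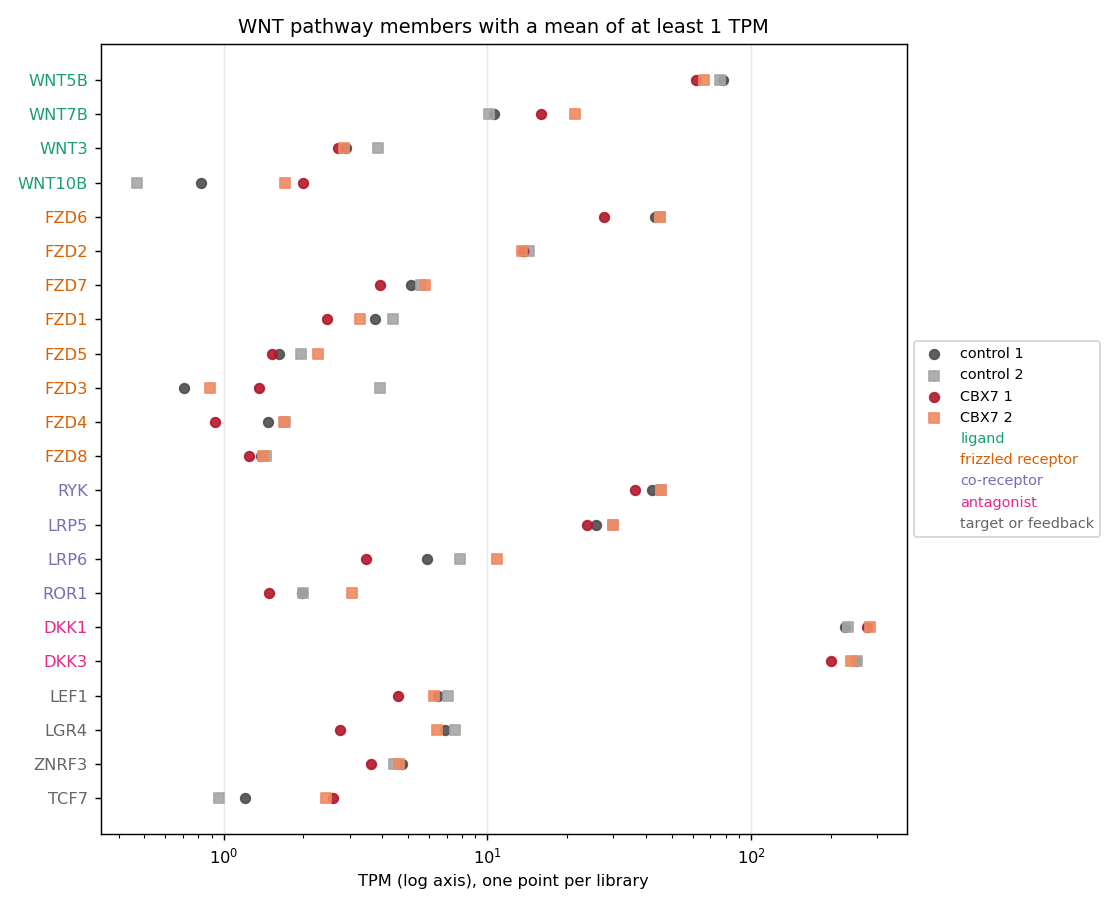
TPM (log axis) of the 22 genes with a mean of at least 1 TPM, one point for each of the 4 libraries, with gene names coloured by role. DKK1 and DKK3 lie above 200 TPM in every library, and for WNT7B, WNT10B and TCF7 both CBX7 libraries lie to the right of both control libraries.

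A total of 18 genes had too few counts to test, since edgeR's filterByExpr asks for about 0.439 CPM in at least 2 libraries. They were the ligands WNT1, WNT2, WNT3A, WNT4, WNT6, WNT10A, WNT11 and WNT16, the receptors FZD9 and FZD10, the antagonists DKK2, SFRP1, SFRP2, FRZB and WIF1, and LGR5, RNF43 and NKD1. Of these, 6 had no count in any library (WNT1, WNT3A, WNT6, FZD9, WIF1 and RNF43), and the highest count among all 18 was 5, for FRZB in CBX7 replicate 2. A fall of these genes was not detectable at this depth.

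The other 28 genes were compared between the groups with edgeR's quasi-likelihood test, in which p-values were adjusted by the Benjamini-Hochberg method over all 14862 genes tested. None of the 28 passed an adjusted p of 0.05, in a fit in which 0.0202% of all genes tested did. DESeq2's Wald test, run on the same genes, called 1 of the 28, WNT7B (adjusted p = 0.00409), where it called 0.451% of all genes. With no filter on low counts 40 genes of the module were tested. There edgeR called 3 (7.5%), WNT7B, WNT10B and TCF7, against 1.01% of all genes. That fit gave each gene the spread typical of its level and not its own. At an unadjusted p under 0.05, edgeR with its filter counted 6 of the 28 genes (21.4%, against 4.74% of all genes tested): WNT7A, WNT7B, WNT10B, DKK1 and TCF7 were higher with CBX7, where 3.42% of all genes were, and FZD1 was lower, where 1.32% were. Of the higher genes, WNT7A reached the level of the filter in both libraries of CBX7 cells only, so its place in this count is partly set by the filter. For 1 gene alone, 2 libraries against 2 allow no p below 0.333 in an exact permutation test (two-sided). The smaller values come from sharing the spread across genes. With the replicate number as a block, which no source says marks a batch, 4 of the 28 were called, against 2.43% of all genes. These were WNT7B, WNT10B, TCF7 and, lower, LGR4. Like the fit with no filter, the block fit gave each gene the spread typical of its level. With the block and the gene length correction together 3 were called, WNT7B, WNT10B and TCF7, against 1.82%.

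The direction was mixed over the whole module. Of the 28 genes, 14 had a log2 fold change above 0 and 14 below, with a median of 0.00, the same as over all 14862 genes. The groups did not overlap for 10 genes (35.7%, against 30.3% of all genes tested): 6 were higher in both CBX7 libraries (15.4% of all genes were) and 4 lower (14.8% of all genes). With at least a 1.5-fold difference as well, there were 5 higher genes (3.99% of all genes) and 1 lower gene (2.42%). Of the 5, WNT7A and ROR2 reached the level of the filter in both libraries of CBX7 cells only, so that their presence in this count is partly set by the filter. When each library had to hold 10 counts or more, 5 of 25 genes (20%) had an unadjusted p under 0.05, against 4.39% of all genes. In bulk RNA, fewer cells with a transcript and less of it per cell cannot be told apart.

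**Figure D2:**
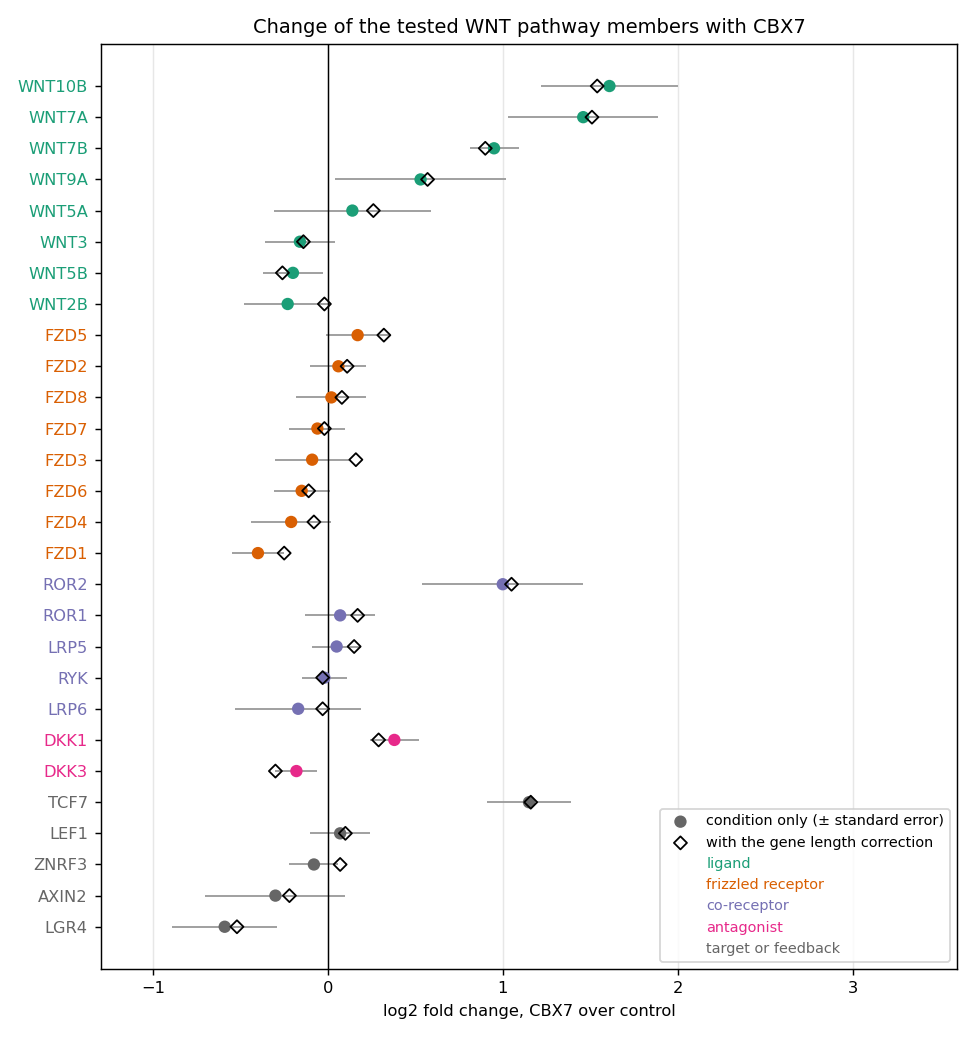
Log2 fold change (CBX7 over control) of the 28 tested genes, coloured by role, with bars of 1 standard error; open diamonds give the same genes after each library's trend with gene length was removed. WNT10B, WNT7A, TCF7, ROR2 and WNT7B lie furthest to the right, LGR4 furthest to the left, and most Frizzled receptors lie near 0.

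The 2 largest fold changes among the 28 genes were those of ligands, WNT10B and WNT7A. WNT10B, which acts mainly through beta-catenin, had 31 and 15 counts in control and 88 and 57 in CBX7 libraries. Its normalised level was 1.01 ± 0.413 CPM in control and 3.10 ± 0.773 CPM with CBX7 (SD, n = 2 libraries each), and the CBX7 libraries lay clear of the controls. The log2 fold change was 1.61 (standard error 0.39), with an adjusted p of 0.597 in edgeR's test, and the 95% interval of the fold ran from 1.55 to 5.98. WNT7B, a canonical ligand of epithelia, was the most abundant ligand after WNT5B and did not overlap between the groups. Its TPM was 10.6 and 10.1 in control and 16.0 and 21.4 in CBX7 libraries. On the CPM scale it went from 29.7 ± 1.9 to 57.3 ± 2.81 (SD, n = 2 each), a log2 fold change of 0.95 (standard error 0.14) with an adjusted p of 0.260 in edgeR's test. The fold was 1.93, with a 95% interval from 1.52 to 2.44. WNT7A, the close paralog of WNT7B, had 14 and 7 counts in control and 35 and 25 with CBX7, a log2 fold change of 1.46 (standard error 0.43, adjusted p = 0.782 in edgeR's test). It passed the filter through its CBX7 libraries, as did ROR2 and, with overlapping groups, WNT9A, so their differences are partly a condition of their having been tested.

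None of the remaining tested ligands had an unadjusted p under 0.05 in edgeR's test without the length correction. WNT9A and WNT5A were too scarce to decide, with 95% intervals of the fold from 0.620 to 3.36 and from 0.506 to 2.39. WNT5B, at 78.5 and 76.0 TPM in control and 61.6 and 66.1 TPM in CBX7 libraries, had a log2 fold change of -0.20 (standard error 0.17), with a 95% interval of the fold from 0.656 to 1.16. Its TPM values did not overlap between the groups, but its CPM values did, at 112 and 105 against 106 and 83.0. With the WNT5B TPM lower and the WNT7B TPM higher, the WNT5B share of ligand TPM was 83.4% and 82.7% in control and 73.4% and 70.3% in CBX7 libraries. These shares rest on the deposited TPM, in which WNT7B was low for its counts (ratio 0.482 to 0.485 relative to the median gene). WNT3, a canonical ligand, had 168 and 185 counts in control and 186 and 145 with CBX7, and WNT5A, the paralog of WNT5B, had 15 to 26 counts in all 4 libraries. WNT2B, a canonical ligand, was lower in both CBX7 libraries by a small margin, from 3.02 ± 0.242 to 2.55 ± 0.285 CPM (SD, n = 2 each). Its log2 fold change was -0.23 (standard error 0.25), and it was -0.02 once the trend with gene length had been removed. WNT2B shares exon sequence with ST7L on the opposite strand, which had 211 to 268.2 counts.

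**Figure D3:**
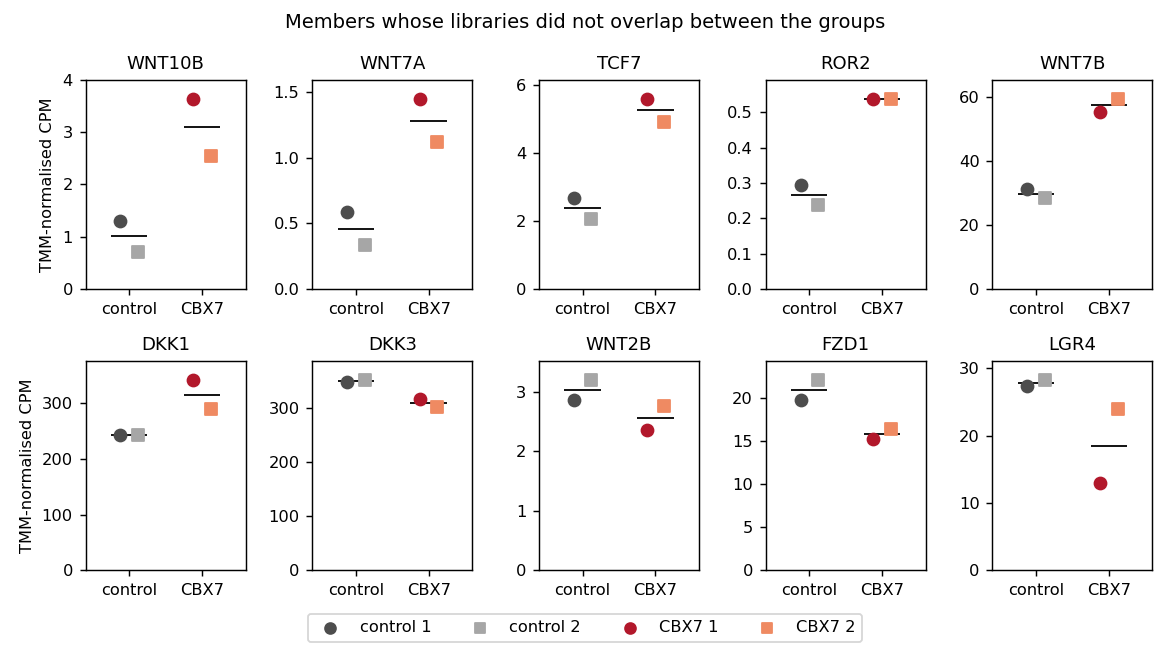
TMM-normalised CPM of the 10 genes whose libraries did not overlap between the groups, with a point for each library and a line at the group mean; each axis starts at 0. The CBX7 libraries are above the controls for WNT10B, WNT7A, TCF7, ROR2, WNT7B and DKK1 and below them for DKK3, WNT2B, FZD1 and LGR4, where CBX7 replicate 1 is far below replicate 2.

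None of the tested Frizzled receptors, which bind the ligands at the cell surface, passed the adjusted threshold in edgeR's test. Some 95% intervals of the fold were wide, from 0.579 to 1.29 for FZD4 and from 0.682 to 1.20 for FZD6. FZD6 was the most abundant, at 43.3 and 45.0 TPM in control and 27.7 and 45.0 TPM in CBX7 libraries, so that only CBX7 replicate 1 was low. FZD2, at 13.8 and 14.4 TPM in control and 13.6 and 13.5 TPM with CBX7, was level, with 38.6 ± 0.114 CPM in control and 40.2 ± 6.52 CPM with CBX7 (SD, n = 2 each) and a 95% interval of the fold from 0.791 to 1.37. FZD1 was the 1 receptor with an unadjusted p under 0.05. It had 472 and 465 counts in control and 369 and 366 with CBX7, or 21.0 ± 1.67 and 15.8 ± 0.779 CPM (SD, n = 2 each), and its libraries did not overlap. The log2 difference was -0.40 ± 0.15 (standard error; adjusted p = 0.951 in edgeR's test), and it was -0.25 after the gene length correction. FZD1 was no longer under an unadjusted p of 0.05 after that correction or in DESeq2's test, in which DKK1 and WNT7A were not either. FZD4 had 199.4 and 194.7 counts in control and 149.3 and 203.1 with CBX7. FZD5 had 209 and 212, then 234 and 259 counts. FZD7 had 352 and 323, then 319 and 350 counts, and FZD8 98.6 and 87, then 106.7 and 89. These receptors and FZD3 had log2 fold changes between -0.21 and 0.17, with groups that overlapped in each. The TPM of FZD3 (0.710 and 3.90 in control, 1.36 and 0.890 with CBX7) varied far more than its counts (182 and 205, then 178 and 201). The ratio of its TPM to its count per base, relative to the median gene, ranged from 0.795 to 3.25 over the libraries, so its TPM does not follow the counts. FZD4 shares exon sequence with PRSS23 on the opposite strand, which had 2476.3 to 3250.7 counts.

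Of the co-receptors, RYK, a kinase-related receptor for WNT ligands, had 42.2 and 45.4 TPM in control and 36.3 and 45.5 TPM with CBX7. It was level in CPM, with 76.0 ± 2.09 CPM in control and 75.0 ± 0.992 CPM with CBX7 (SD, n = 2 each). The 95% interval of its fold ran from 0.794 to 1.23. LRP5, at 25.7 and 30.0 TPM in control and 23.8 and 29.8 TPM with CBX7, had an interval from 0.822 to 1.31. Its partner LRP6, with 986 and 1141 counts in control, had 663 counts in CBX7 replicate 1 and 1288 in CBX7 replicate 2. The CBX7 libraries of LRP6 thus lay on either side of the controls, and the interval of its fold, from 0.478 to 1.65, was wide. ROR1, which like ROR2 binds WNT5A, had 196 and 167 counts in control and 174 and 218 with CBX7, and its groups overlapped. ROR2 was scarce and higher with CBX7 in both libraries, with 7 and 5 counts in control and 13 and 12 with CBX7 (log2 fold change 1.00, standard error 0.46, adjusted p = 0.951 in edgeR's test).

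Of the antagonists, DKK1 was higher and DKK3 lower in both CBX7 libraries, by small amounts that did not pass the adjusted threshold, and the interval of DKK3 included no change. DKK1 had 242 CPM in both control libraries and 341 and 289 CPM in CBX7 replicates 1 and 2. The log2 difference was 0.38 ± 0.14 (standard error), and the adjusted p was 0.951 in edgeR's test. The 95% interval of the fold ran from 1.02 to 1.66. After the gene length correction the log2 fold change was 0.29 (adjusted p = 0.352, edgeR). DKK3 had 348 and 351 CPM in control and 317 and 302 CPM with CBX7, a log2 fold change of -0.18 (standard error 0.12) and an interval from 0.718 to 1.09. At 1805 and 1326 bases both genes are short, and after the length correction DKK3 was at -0.30 (adjusted p = 0.675, edgeR). In TPM, DKK3 was the higher of the pair in control libraries and DKK1 in CBX7 libraries. This order is uncertain, since TPM did not follow count per base equally in all genes. In CPM, DKK3, the shorter gene, was at 317 and 302 in CBX7 libraries and DKK1 at 341 and 289. DKK1 shares exon sequence with PRKG1-AS1 on the opposite strand, which had 66.9 to 83.9 counts.

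Among the target and feedback genes, TCF7 was higher and LGR4 lower in both CBX7 libraries. TCF7 encodes TCF1, a DNA-binding partner of beta-catenin and itself a target of the pathway. It had 64 and 43 counts in control and 135 and 110 with CBX7, and its TPM went from 1.20 and 0.960 to 2.60 and 2.45. The libraries lay well apart, at 2.37 ± 0.448 and 5.26 ± 0.471 CPM (SD, n = 2 each). On the log2 scale they differed by 1.15 ± 0.24 (standard error), and the adjusted p was 0.469 in edgeR's test. The 95% interval of the fold ran from 1.46 to 3.37. TCF7 shares exon sequence with SKP1 on the opposite strand, which had 4305 to 6321.4 counts and a log2 fold change of 0.11 (standard error 0.18). The protocol in the labels names no step that marks the strand, so reads of the overlap cannot be assigned by strand.

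LGR4, a receptor for R-spondins that strengthens WNT signalling, had 654 and 592 counts in control but 311 in CBX7 replicate 1 and 537 in CBX7 replicate 2. Its level was 27.8 ± 0.558 CPM in control and 18.5 ± 7.89 CPM with CBX7 (SD, n = 2 each), a log2 fold change of -0.59 (standard error 0.30, adjusted p = 0.951 in edgeR's test). The size of this difference rested on CBX7 replicate 1: without that library the log2 fold change was -0.21. LEF1, the relative of TCF7, had 150 and 148 counts in control and 173 and 152 with CBX7, with a 95% interval of the fold from 0.775 to 1.42. ZNRF3, a ubiquitin ligase that removes Frizzled receptors from the surface, had 423 and 356 counts in control and 376 and 388 with CBX7 and an interval from 0.739 to 1.22. AXIN2, the scaffold gene used most often as a readout of beta-catenin, had 20 and 28 counts in control and 24 and 17 with CBX7. Its groups overlapped, and with so few counts the interval was wide, from 0.408 to 1.63.

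RefSeq promoter sequences (GRCh38.p14) were found for 30 of the 46 genes. They are described because Polycomb is known to bind CpG-rich promoters. In the 250 bases before the first listed start, the median number of CpG dinucleotides was 24 in these 30 genes and 11 over the promoters of 27305 genes. It was 24 in the 18 tested genes with a sequence and 25.5 in the 12 with too few counts. A 6-letter form of the TCF and LEF motif, CTTTGA, searched on both strands, was present in 11.4% of all these promoters and in 1 of the 30, that of DKK1, which holds it at 2 places. Other forms of the motif were not searched. The windows of 3 of the 4 genes with a sequence, non-overlapping groups and at least a 1.5-fold difference are shown, with CpG dinucleotides in capitals: the higher TCF7 (22 CpG) and WNT7A (29 CpG), and the lower LGR4 (14 CpG).
TCF7, chr5:134115363-134115612, plus strand: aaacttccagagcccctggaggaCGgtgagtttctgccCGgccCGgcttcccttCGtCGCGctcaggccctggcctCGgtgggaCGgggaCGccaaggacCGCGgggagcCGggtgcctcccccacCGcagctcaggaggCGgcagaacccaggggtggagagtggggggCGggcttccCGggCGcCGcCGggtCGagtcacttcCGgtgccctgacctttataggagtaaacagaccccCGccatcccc
WNT7A, chr3:13880072-13880321, minus strand: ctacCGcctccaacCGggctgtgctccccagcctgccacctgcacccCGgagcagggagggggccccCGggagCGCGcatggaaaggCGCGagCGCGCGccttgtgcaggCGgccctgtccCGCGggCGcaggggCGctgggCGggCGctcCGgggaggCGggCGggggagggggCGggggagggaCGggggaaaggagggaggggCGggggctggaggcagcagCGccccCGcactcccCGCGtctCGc
LGR4, chr11:27472791-27473040, minus strand: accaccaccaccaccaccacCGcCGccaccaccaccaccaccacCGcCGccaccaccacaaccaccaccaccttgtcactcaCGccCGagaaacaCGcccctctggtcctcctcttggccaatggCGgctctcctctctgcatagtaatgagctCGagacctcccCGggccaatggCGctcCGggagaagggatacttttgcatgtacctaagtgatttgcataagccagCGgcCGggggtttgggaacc
The fourth gene is ROR2, with 32 CpG, whose window is not shown because its end lay in no GENCODE transcript of the gene. Of all promoters, 86.2% held fewer CpG than that of WNT7A and 55.3% fewer than that of LGR4. TCF7 has a second listed start with 1 CpG in its window, and counts summed over the gene do not separate transcripts from the 2 starts.

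The trend of CBX7 replicate 1 with gene length was also present in these genes. Over the 28 tested genes, the log2 ratio between the replicate 1 libraries correlated with gene length at -0.46 (Spearman), and the ratio of the replicate 2 libraries at -0.12. The genes share libraries and depth, so these values are descriptions. WNT10B had log2 ratios of 1.49 and 1.84 for replicates 1 and 2, WNT7A of 1.30 and 1.75, TCF7 of 1.06 and 1.27, WNT7B of 0.83 and 1.06, and ROR2 of 0.88 and 1.17. For these 5 genes the ratio was larger in the replicate 2 libraries than in the replicate 1 libraries. For LGR4 the ratios were -1.09 and -0.23 and for LRP6 -0.59 and 0.09, so that the lower level was in replicate 1 alone for LRP6 and mostly there for LGR4. WNT9A (-0.20 and 1.37) and AXIN2 (0.25 and -0.81), both with under 30 counts per library, had ratios of opposite sign.

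**Figure D4:**
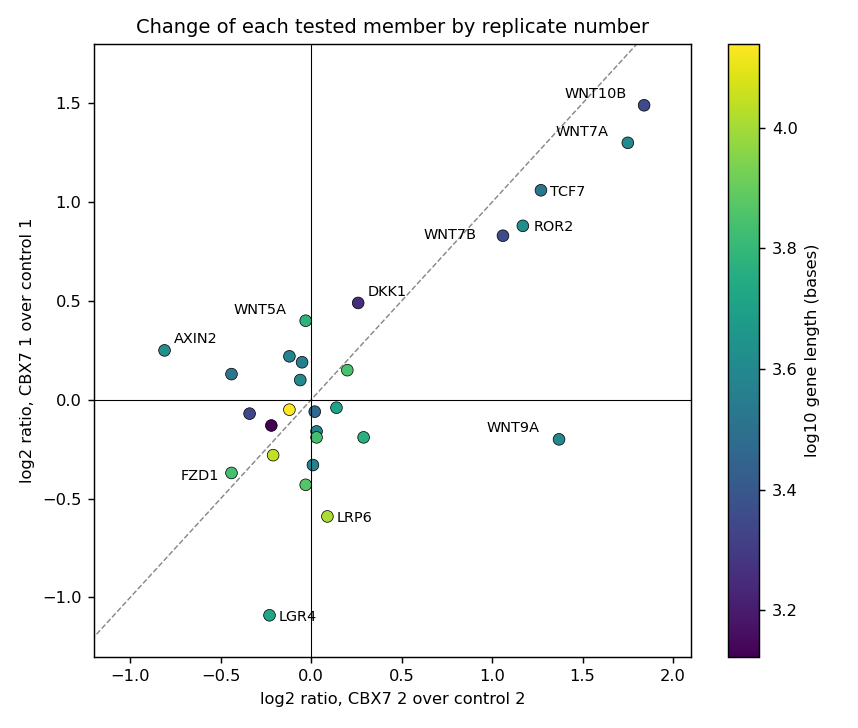
Log2 ratio of CBX7 to control for each of the 28 tested genes in the replicate 1 libraries (vertical axis) against the replicate 2 libraries (horizontal axis), coloured by gene length; the dashed line marks equal ratios. WNT10B, WNT7A, TCF7, ROR2 and WNT7B lie high on both axes, while LGR4 and LRP6 are low in replicate 1 only or mainly there.

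Of 71 other genes of the pathway, 49 had enough counts to test. None passed an adjusted p of 0.05 in edgeR's test, and 6 (12.2%) had an unadjusted p under 0.05, against 4.74% of all genes: 5 were higher with CBX7 and 1 was lower. NOTUM and BAMBI, 2 of the 5, passed the filter through their CBX7 libraries, so their differences are partly a condition of their having been tested. When each library had to hold 10 counts or more, the number was 4 of 47 (8.51%, against 4.39% of all genes in that fit). NFATC1, a transcription factor of the calcium branch, had 12 and 18 counts in control and 88 and 67 with CBX7 (log2 fold change 2.29, standard error 0.36, adjusted p = 0.296). It was the 1 gene of the 49 that DESeq2's Wald test called, with an adjusted p of 0.0103, where 0.451% of all genes were called. With no filter 56 of these pathway genes were tested and edgeR called 3, NFATC1, NOTUM and KREMEN2, against 1.01% of all genes. With the replicate block 4 of 49 were called (KREMEN1, KREMEN2, NFATC1 and NOTUM; 2.43% of all genes), and 3 with the block and the length correction together (CELSR1, KREMEN2 and NFATC1; 1.82%). NOTUM, an enzyme that strips the lipid from WNT ligands and is a target of the pathway, had 5 counts in each control library and 36 and 17 with CBX7 (log2 fold change 2.31, standard error 0.54, adjusted p = 0.570). KREMEN1 and KREMEN2, receptors through which DKK1 removes LRP6 from the surface, were both higher. KREMEN1 went from 11.4 ± 0.833 to 17.7 ± 2.34 CPM and KREMEN2 from 2.45 ± 0.243 to 5.62 ± 2.37 CPM (SD, n = 2 each), with log2 fold changes of 0.63 and 1.19 and adjusted p of 0.713 and 0.782 in edgeR's test. BAMBI, a decoy receptor that is also a WNT target, had 9 and 12 counts in control and 35 and 22 with CBX7 (adjusted p = 0.863). TCF7L2, the main TCF factor of many epithelia, was the lower gene, at 10.7 ± 0.135 CPM in control and 7.67 ± 1.37 CPM with CBX7 (SD, n = 2 each; log2 fold change -0.48, adjusted p = 0.951). Beta-catenin itself (CTNNB1) had 359.9 and 366 CPM in control and 329 and 353 CPM with CBX7, with a 95% interval of the fold from 0.760 to 1.16, and the intervals of MYC (0.889 to 1.44) and CCND1 (0.814 to 1.28), targets in other tissues, also included no change.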

How the data were processed

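RNA of T24 cells was sequenced in 2 control and 2 CBX7-overexpressing libraries. Per the labels, total RNA was reverse-transcribed with random primers and sequenced on an Illumina HiSeq instrument, and the submitters' processing notes list cutadapt 1.9.1, HISAT2 2.0.1, HTSeq 0.6.1, DESeq2 and hg19. Of the deposited files, 1 table holds for each gene the authors' estimated count (88.2% to 88.9% of values whole), which HTSeq would give as whole numbers only, so the program behind this table is not given in the sources used here. The authors also deposited a TPM value per gene and library and a gene length, and the results of their own comparison (fold and log2 fold, raw and adjusted p-value), which were not used.

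Counts were rounded. In edgeR 4.0.16, run in R 4.3.3, filterByExpr removed low genes, TMM gave the scaling, and glmQLFit with glmQLFTest (defaults, the older form of the method) compared the groups without further covariates, p-values being adjusted by Benjamini-Hochberg over every gene tested. Standard errors are the log2 fold change over the square root of F, and 95% intervals use the t distribution with the fit's degrees of freedom, unadjusted. TPM values, as deposited, describe levels and were not tested. DESeq2 1.42.0, other scalings and filters, the newer quasi-likelihood method, a replicate block, removal of each library's lowess trend with gene length (span 0.3) and leaving out each library were alternatives. The libraries of a group differed beyond sampling noise (chi-square per degree of freedom 6.06 and 54.7). On simulated counts for 14862 genes, 200 of which were shifted by a log2 value of 1.5, edgeR recovered 188 with 3 false calls and DESeq2 174 with 6. With an added length trend edgeR recovered 179 with 19 false calls, and 186 with 9 after the length correction. Whether a shift of this size would be recovered at the spread of the sequenced libraries was not tested. In those libraries WNT10B, with a log2 fold change of 1.61, had an adjusted p of 0.597 in edgeR's test. Per-library values are given for genes with a mean of at least 1 TPM, an unadjusted p under 0.05, or non-overlapping groups with at least a 1.5-fold difference, and for up to 8 other pathway genes with an unadjusted p under 0.05. FRZB, WNT2B, WNT5A, WNT9A, AXIN2, CTNNB1, MYC and CCND1 were named or given values beside that rule, after their values were seen. The genes, the lists and the gene length correction were chosen with earlier results of these data known. Of the marker lists, 1 gene is not reported here. Promoters are RefSeq's (GRCh38.p14) and exon overlaps GENCODE release 29's (GRCh38); both were matched by name or identifier, so the build of the counts does not enter.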

Additional observations from a re-analysis of the deposited data

How the results depend on the processing

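Genes with an adjusted p under 0.05 numbered 3 over all genes, and 3, 2 or 1 with other scalings, a minimum of 10 counts, the newer quasi-likelihood method, the gene length correction (2) and an adjusted p under 0.01 (1). There were 265 with no filter, 67 with DESeq2's Wald test, and 45 to 5491 when 1 library was left out. None of the 28 genes of the module was called under those scalings, the minimum of 10 counts, the newer method, the length correction or an adjusted p under 0.10; 3 were called with no filter (WNT7B, WNT10B and TCF7) and 1 with DESeq2 (WNT7B). The prior degrees of freedom were infinite with no filter, with the block and in each fit that left out a library, so that every gene took the trended spread. Leaving out a library gave 0 to 10 calls: 0 without either control library, 3 (10.7%) without CBX7 replicate 1 (WNT7B, TCF7 and, lower, WNT5B), where 397 genes (2.59%) were called in all, and 10 (35.7%) without CBX7 replicate 2, where 5491 genes (35.5%) were, so that the module's share was near that of all genes. In those fits a lone library is assumed to vary like the other group. At an unadjusted p under 0.05 the module had 6 genes, 4 to 8 under the alternatives with all libraries (4 with DESeq2, where 2.88% of all genes passed, 8 with the length correction, where 6.8% did, 7 with the replicate block, where 10.2% did, and 8 with both, where 11.8% did) and 3 to 10 with 1 left out: 3 (10.7%, against 2.47% of all genes) without control replicate 2 and 10 (35.7%, against 43% of all genes) without CBX7 replicate 2. The other pathway genes had 6, and 3 to 27 with 1 library left out (3 without control replicate 1, where 2.87% of all genes passed, 11 without CBX7 replicate 1, where 9.36% did, and 27, or 54%, without CBX7 replicate 2, where 43% did). The module's median log2 fold change, 0.002, was 0.088 after the length correction and -0.094 as a ratio of group mean TPM. For CBX7 itself the log2 fold change lay between 7.26 and 7.44.

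The replicate numbers are shared by the groups, but no source says that they mark a batch, and with 2 pairs a pairing cannot be shown from the data. Same-numbered libraries deviated together (correlation 0.31 over 14862 genes and 0.61 over the 11077 that averaged 100 counts or more, although genes do not replicate each other). With the replicate block 361 genes were called, 4 of them of the module (WNT7B, WNT10B, TCF7 and, lower, LGR4), where 2.43% of all genes tested were; the adjusted p of LGR4 was 0.00626, and 0.119 with the gene length correction as well. In the replicate block with the gene length correction 270 genes were called, 3 of the module (WNT7B, WNT10B and TCF7), 14 other pathway genes had an unadjusted p under 0.05 (28.6%, against 11.8% of all genes), and the module's median was 0.084.

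Signs changed only for genes near 0 or with 1 divergent library, and the cause was not tested. FZD3 was at 0.16 after the length correction and 0.15 with the block as well, and ZNRF3 at 0.067 and 0.068. With 1 library left out, log2 fold changes lay from -0.32 to 0.0103 for WNT3, from -0.26 to 0.66 for WNT5A, from -0.11 to 0.21 for FZD2, from -0.26 to 0.0995 for FZD3, from -0.51 to 0.0504 for FZD4, from -0.34 to 0.0248 for FZD6, from -0.19 to 0.0613 for FZD7, from -0.0533 to 0.0938 for FZD8, from -0.0356 to 0.14 for LRP5, from -0.80 to 0.28 for LRP6, from -0.17 to 0.28 for ROR1, from -0.0472 to 0.00733 for RYK, from -0.60 to 0.0662 for AXIN2, from -0.16 to 0.00578 for ZNRF3 and from -0.0166 to 0.15 for LEF1. The signs of WNT7A, WNT7B, WNT10B, TCF7, ROR2, DKK1, DKK3, FZD1 and LGR4 held in every fit that tested them (WNT7A and ROR2 had too few counts for the minimum of 10 in every library). Without CBX7 replicate 1, LGR4 was at -0.21 and without CBX7 replicate 2 at -1.11. Depth limits the genes with the fewest counts: WNT5A, WNT7A, WNT9A, ROR2 and AXIN2, none with more than 35 in a library.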
